A study of Mus musculus with 71 samples.

Results

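The 4 CD3 chain genes *Cd3d*, *Cd3e*, *Cd3g* and *Cd247*, the pre-T cell receptor α gene *Ptcra* and the kinase genes *Lck*, *Fyn* and *Zap70* were followed by RNA-seq through T cell development and in pro-B cells carrying mutant forms of the transcription factor Pax5. They were taken by gene symbol and make 8 of the 25579 genes of the *Pax5* tables and 8 of the 24420 genes of the lymphoid tables. Expression was given as TPM, a level corrected for transcript length and scaled to a fixed total per library, in 48 mouse RNA libraries on the C57BL/6 background. The *Pax5* tables hold 31 libraries of cells sorted from bone marrow, and the lymphoid tables hold 17 libraries of cells sorted from bone marrow or thymus. The labels give no age of the mice, and nothing in them says whether replicates came from separate animals, so p values measure the spread between these libraries.

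The first *Pax5* experiments comprised 5 libraries of Pax5(+/+) pro-B cells and 2 of each other genotype. Deletions (written D) of the octapeptide (OP), of the partial homeodomain (HD) or of both were homozygous in Pax5(DOP/DOP), Pax5(DHD/DHD) and Pax5(DOP,HD/DOP,HD) pro-B cells. Deletions of the C-terminal regulatory domains CRD1, CRD2 or both were homozygous in Pax5(DCRD2/DCRD2), Pax5(DCRD1/DCRD1) and, for both together, Pax5(DCRD1,2/DCRD1,2) pro-B cells, and hemizygous over a null allele (written -) in Pax5(DCRD1/-), Pax5(DCRD2/-) and Pax5(DCRD1,2/-) pro-B cells. The Vav-Cre Pax5(fl/fl) progenitors had lost Pax5, as *Vav*-Cre deletes the floxed allele in haematopoietic stem cells and hence in all blood lineages. A separate experiment held 2 libraries each of Vav-Cre Pax5(fl/+) pro-B cells, of Vav-Cre Pax5(fl/fl) progenitors and of Vav-Cre Pax5(Prd/fl) progenitors, whose one remaining allele encodes the DNA-binding paired domain alone. All groups of that experiment, the controls included, carried the Cre transgene. The lymphoid libraries came from wild-type lymphoid-primed multipotent progenitors (LMPP, 2 libraries), from the successive CD4- CD8- thymocyte stages DN1, DN2a and DN2b (3 libraries each) and DN3a and DN3b (2 libraries each), and from Rag2(-/-) DN3a thymocytes (2 libraries), which cannot rearrange antigen receptor genes. In DN1, DN2a and DN2b the labels give 2 of the 3 libraries the same replicate number, so these may not be independent samples. They were kept apart, since their values differ, and averaging them changed no call of the 8 genes.

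CD3δ, CD3ε, CD3γ and the CD247 ζ chain carry the tyrosine motifs (ITAMs) through which the T cell receptor signals. At the DN3 stage they assemble with the invariant pre-Tα chain, encoded by *Ptcra*, and a newly rearranged TCRβ chain into the pre-T cell receptor, and signalling by this receptor takes DN3a cells to the DN3b stage. Lck, and to a lesser degree its relative Fyn, phosphorylate the ITAMs, on which ZAP-70 then docks and is activated. The B lineage has the parallel pre-B cell receptor, whose ITAM chains are CD79A and CD79B and whose kinases are mainly Lyn, Blk and Syk. Pax5 is known to repress genes of other blood lineages in B cell progenitors, and its loss leaves them open to T cell fates.

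*Cd3g*, *Cd3d* and *Cd3e* lie next to each other on chromosome 9 of GRCm38.p6, at chr9:44969572-44980431, chr9:44981769-44987052 and chr9:44998735-45009663. The annotated starts of *Cd3g* and *Cd3d* lie only 1355 bp apart and point away from each other, while that of *Cd3e* lies 27825 bp from that of *Cd3d*. The ζ chain gene *Cd247* is elsewhere, at chr1:165779952-165871153, on the same chromosome as *Zap70* at chr1:36761798-36782821. *Ptcra* lies at chr17:46755663-46763712, *Lck* at chr4:129548344-129573641 and *Fyn* at chr10:39369743-39565381. The windows below run from 250 bases before to 50 bases after an annotated RefSeq start on GRCm38.p6, read along the gene's own strand. They are shown for the genes whose RNA differed most between stages and, for *Lck*, at both annotated starts, since this gene is known to have a distal and a proximal promoter and its gene-level TPM do not separate them. Capitals mark CANNTG, the E-box core to which basic helix-loop-helix proteins can bind.
*Ptcra*, chr17:46763663-46763962, minus strand: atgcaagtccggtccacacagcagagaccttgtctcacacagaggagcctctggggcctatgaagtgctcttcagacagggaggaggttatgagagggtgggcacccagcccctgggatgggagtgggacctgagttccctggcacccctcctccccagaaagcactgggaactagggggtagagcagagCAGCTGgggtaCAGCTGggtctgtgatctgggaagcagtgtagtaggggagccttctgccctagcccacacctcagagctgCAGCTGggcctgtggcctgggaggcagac
*Cd3g*, chr9:44980382-44980681, minus strand: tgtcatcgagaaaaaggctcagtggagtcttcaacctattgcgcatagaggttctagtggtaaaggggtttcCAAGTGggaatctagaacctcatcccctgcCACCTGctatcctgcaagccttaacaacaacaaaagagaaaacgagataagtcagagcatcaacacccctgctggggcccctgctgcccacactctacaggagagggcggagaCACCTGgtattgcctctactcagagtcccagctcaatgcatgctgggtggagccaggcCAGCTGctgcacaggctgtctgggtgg
*Cd3d*, chr9:44981536-44981835, plus strand: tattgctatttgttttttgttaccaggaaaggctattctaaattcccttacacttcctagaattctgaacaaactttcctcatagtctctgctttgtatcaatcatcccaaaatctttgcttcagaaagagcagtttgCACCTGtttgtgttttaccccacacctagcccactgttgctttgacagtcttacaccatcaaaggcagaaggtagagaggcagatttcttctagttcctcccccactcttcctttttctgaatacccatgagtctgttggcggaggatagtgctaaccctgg
*Cd3e*, chr9:45009562-45009861, minus strand: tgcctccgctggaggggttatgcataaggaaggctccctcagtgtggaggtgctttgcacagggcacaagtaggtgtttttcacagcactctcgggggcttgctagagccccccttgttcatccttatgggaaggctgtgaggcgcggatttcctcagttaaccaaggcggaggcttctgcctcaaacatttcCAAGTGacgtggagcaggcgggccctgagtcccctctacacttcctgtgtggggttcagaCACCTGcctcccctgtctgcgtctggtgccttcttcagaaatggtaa
*Lck*, upstream start, chr4:129573592-129573891, minus strand: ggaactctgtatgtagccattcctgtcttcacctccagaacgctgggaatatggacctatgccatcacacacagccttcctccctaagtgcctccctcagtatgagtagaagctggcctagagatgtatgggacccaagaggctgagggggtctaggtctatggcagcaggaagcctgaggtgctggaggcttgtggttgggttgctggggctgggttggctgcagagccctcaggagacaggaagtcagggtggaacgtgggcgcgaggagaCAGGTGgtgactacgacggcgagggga
*Lck*, downstream start, chr4:129558323-129558622, minus strand: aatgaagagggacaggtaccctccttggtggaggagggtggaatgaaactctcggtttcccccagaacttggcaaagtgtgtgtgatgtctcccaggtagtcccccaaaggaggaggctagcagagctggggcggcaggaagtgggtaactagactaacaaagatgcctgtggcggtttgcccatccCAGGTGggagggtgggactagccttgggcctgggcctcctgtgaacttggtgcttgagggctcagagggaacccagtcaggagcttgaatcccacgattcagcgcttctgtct

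CANNTG occurred in each of the 11 RefSeq windows of the 8 genes, as it did in 72.3% of 32851 windows of the same length over all genes. In the *Ptcra* window it stood at positions -60, -49 and 21 from the start, in the *Cd3g* window at -178, -148, -35 and 23, in the *Cd3e* window at -57 and 3, and in the *Cd3d* window once, at -112. The upstream *Lck* window held it at 23 and the downstream one at -63. Of the other letters searched on both strands, AGATAA occurred in 1 window, that of *Cd3g* at -104, against 11.2% of all windows. TGTGGT occurred in 2, the upstream *Lck* window at -58 and one of the *Zap70* windows at -75, against 16.8%. TGATAA and TATAAA were in none of the 11 windows, and in 9.05% and 13.6% of all windows. These matches are letters only, and say nothing of what binds there.

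The *Pax5* libraries held 10018700 to 43784800 reads in genes (rounded to the nearest 100), recovered from the TPM, with the lowest depth in a Vav-Cre Pax5(fl/fl) library. Reads of 50 nt were made for 3 of the 5 Pax5(+/+) libraries, both Pax5(DCRD1/DCRD1) libraries and both Vav-Cre Pax5(fl/fl) libraries of the first experiments, and reads of 100 nt for the other *Pax5* libraries. A term for read length was therefore fitted, and since no other genotype has both lengths, each fitted change from Pax5(+/+) is in effect against the Pax5(+/+) libraries of the same read length. The authors trimmed all these reads to 50 nt, and the read lengths also mark separate series of libraries. Read length and other differences between those series cannot be told apart. The Pax5(DCRD1,2/DCRD1,2), Pax5(DCRD1,2/-) and first Vav-Cre Pax5(fl/fl) cells were sorted with another gate than the pro-B cells, as Ly6D+ Kit high B220+ cells after removal of lineage-positive cells, CD3+ cells included. The Vav-Cre Pax5(fl/fl) and Vav-Cre Pax5(Prd/fl) progenitors of the separate experiment are labelled as sorted by an alternative gate, whose markers the labels do not give, so that levels in both sets of Vav-Cre Pax5(fl/fl) progenitors may come from cells gated differently. Gate and genotype cannot be told apart in any of these groups. *Pax5* RNA itself was higher in Vav-Cre Pax5(fl/fl) progenitors (1609 and 1697 TPM) than in Pax5(+/+) pro-B cells (342 to 524 TPM), but a level over the whole gene does not show the loss of an exon and checks nothing. *Rag2* RNA was likewise present in the Rag2(-/-) libraries, at 35.5 and 42.2 TPM.

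The CD3 chains, *Ptcra*, *Lck* and *Zap70* were all lower in LMPP than in DN3 thymocytes, but they came up at different steps, while *Fyn* stayed within a 1.96-fold range over the 7 groups. The highest mean stood 29.7-fold above the lowest for *Lck*, 88.1-fold for *Cd247*, 99.8-fold for *Zap70*, 4063-fold for *Cd3e*, 5021-fold for *Cd3g* and 9911-fold for *Cd3d*. *Ptcra* was listed at 0 in both LMPP libraries. By fitted log2 change, the largest step was that from LMPP to DN1 for *Lck*, *Cd247*, *Zap70* and *Fyn*, that from DN2a to DN2b for *Cd3g*, *Cd3e* and *Cd3d*, and that from DN2b to DN3a for *Ptcra*. *Zap70* alone was highest in DN3b. In bulk samples, fewer cells of a type and less RNA per cell cannot be told apart. Depth is unknown for the lymphoid libraries, so no counting error can be given for them.

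**Figure D1:**
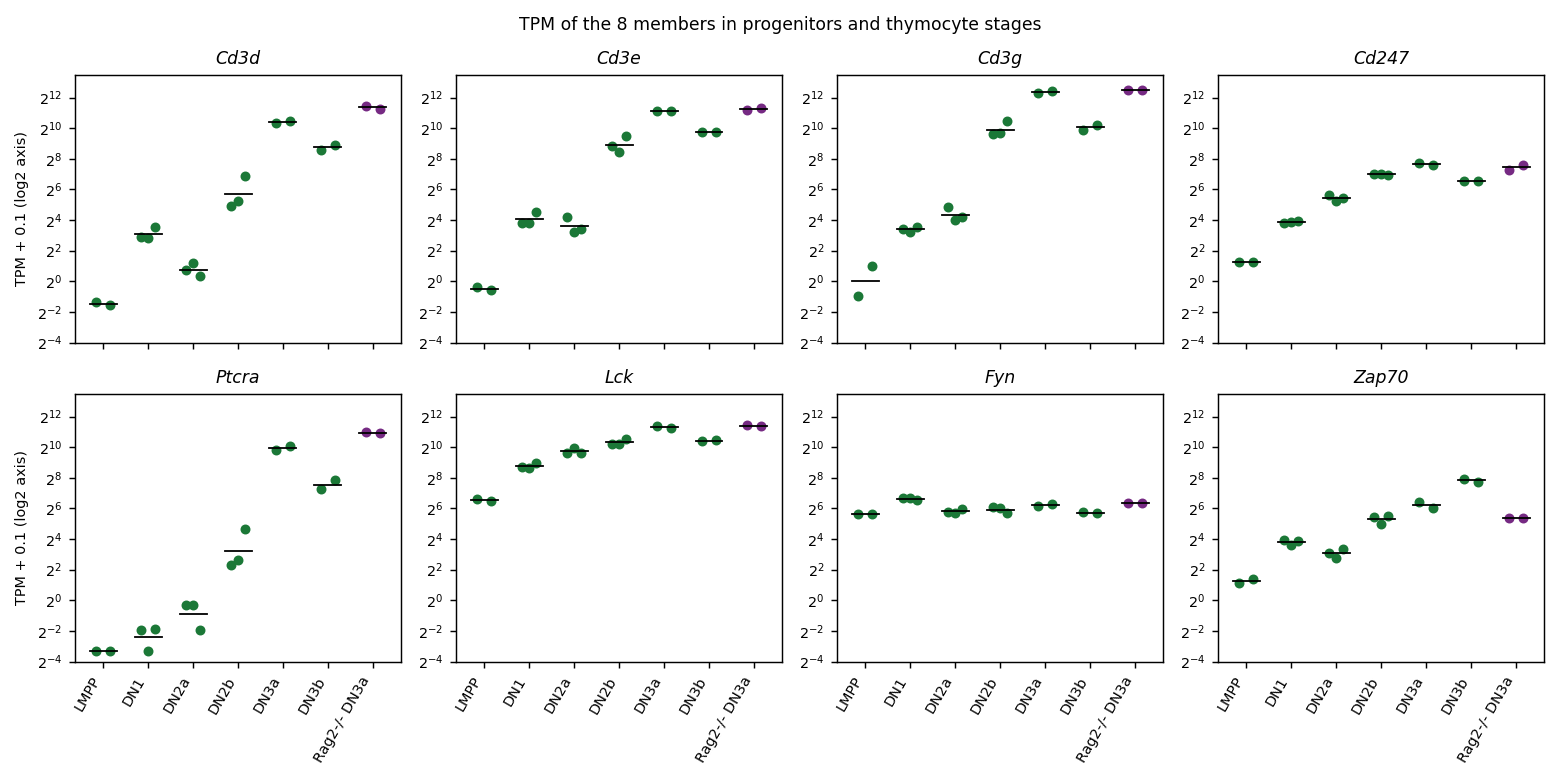
Expression of the 8 genes in each lymphoid library (points) by stage, on a log2 axis of TPM + 0.1; bars are group means on that scale and Rag2(-/-) DN3a libraries are drawn in purple. *Fyn* stays near one level, *Cd3g* and *Cd3e* jump between DN2a and DN2b, *Cd3d* rises at that step and the next, *Ptcra* jumps between DN2b and DN3a, and only *Zap70* is higher in DN3b than in DN3a.

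*Cd3g*, the most abundant of the CD3 chain transcripts from DN2b on, was at 0.422 and 1.86 TPM in LMPP, at 9.28, 10.7 and 11.3 TPM in DN1 and at 15.6, 18.1 and 28.4 TPM in DN2a. In DN2b it reached 770.5, 803 and 1411 TPM, and in DN3a 4975 and 5383 TPM. The DN2a and DN2b libraries were thus separated by more than an order of magnitude, and no stage from LMPP to DN3a overlapped with the next. *Cd3e* followed it, with 0.560 and 0.660 TPM in LMPP, 14.1, 14.2 and 22.5 TPM in DN1, 9.04, 10.4 and 17.9 TPM in DN2a, 349.8, 463 and 714 TPM in DN2b, and 2181 and 2219 TPM in DN3a. For this gene the DN1 and DN2a libraries overlapped.

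*Cd3d*, whose start lies next to that of *Cd3g*, followed another course. It stood at 0.242 and 0.289 TPM in LMPP, 6.98, 7.20 and 11.7 TPM in DN1, and 1.17, 1.57 and 2.21 TPM in DN2a, so that every DN2a library was below every DN1 library. In DN2b it was at 29.97, 38.1 and 118 TPM, the last of these from the library that was also the highest for *Cd3g*, *Cd3e*, *Ptcra*, *Lck* and *Zap70* among the 3. In DN3a it was at 1320.0 and 1402 TPM. From DN2b to DN3a *Cd3d* rose by 4.73 ± 0.44 on the log2 scale (± SE throughout for fitted changes; limma adjusted p = 2.3e-06), while *Cd3g* rose by 2.44 ± 0.42 (limma adjusted p = 0.00043) and *Cd3e* by 2.17 ± 0.30 (limma adjusted p = 7.7e-05). The difference between these 3 changes was not tested.

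*Cd247* was the highest of the 4 chains in LMPP and in DN2a. It stood at 2.28 and 2.30 TPM in LMPP, 13.9 to 15.4 TPM in DN1, 38.5 to 49.8 TPM in DN2a, 124 to 129.5 TPM in DN2b and 195 and 208 TPM in DN3a. The groups did not overlap at any of these steps. As a share of the summed TPM of the 4 chains, *Cd247* made up 29.4 ± 3.75% (SD, n = 3) in DN1, where *Cd3e* made up 33.0 ± 3.41%, and 56.5 ± 4.79% in DN2a, 8.06 ± 2.45% in DN2b and 2.26 ± 0.194% (SD, n = 2) in DN3a. *Cd3g* made up 25.8 ± 2.81% in DN2a, 58.6 ± 2.94% in DN2b and 57.9 ± 0.866% in DN3a. *Cd3d* made up 16.8 ± 2.08% in DN1, 2.19 ± 1.02% in DN2a, 3.34 ± 1.47% in DN2b, 15.2 ± 0.0284% in DN3a and 23.9 ± 2.20% in Rag2(-/-) DN3a cells. The sum itself was 4.31 TPM in LMPP, 50.6 TPM in DN1, 78.9 TPM in DN2a, 1693 TPM in DN2b, 8942 TPM in DN3a and 2463 TPM in DN3b. CD3 chain RNA in DN2b thymocytes was therefore mostly that of *Cd3g* and *Cd3e*, with a small part of *Cd3d*, and the relative amounts of RNA do not give those of the proteins.

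**Figure D2:**
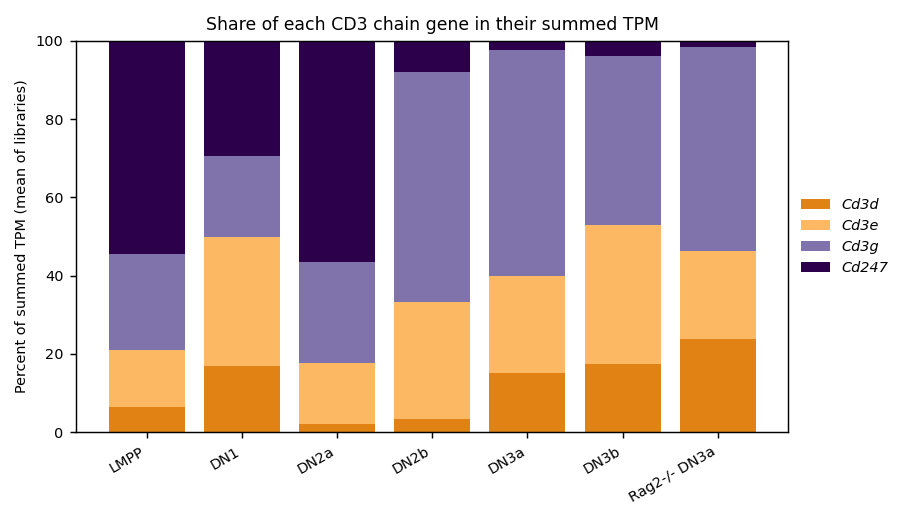
Share of *Cd3d*, *Cd3e*, *Cd3g* and *Cd247* in the summed TPM of the 4 CD3 chain genes (percent, mean of the libraries) in each lymphoid group. *Cd247* holds 54.4% of the sum in LMPP, 56.5% in DN2a and 2.26% of it in DN3a, while *Cd3d* falls to 2.19% in DN2a and is back at 15.2% in DN3a.

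*Ptcra* was the latest of the 8 genes. It was listed at 0 in both LMPP libraries and in 1 of 3 DN1 libraries, and was at 0.163 and 0.171 TPM in the other two. DN2a libraries held 0.156, 0.691 and 0.713 TPM, DN2b libraries 4.87, 6.19 and 25.5 TPM, and DN3a libraries 889.5 and 1081 TPM. The rise from DN2b to DN3a, 6.72 ± 0.65 on the log2 scale (limma adjusted p = 3.2e-06), was the largest fitted change of any of the 8 genes at that step. DN3b libraries were at 152 and 233 TPM, below both DN3a libraries.

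*Lck* was already at 87.4 and 95.7 TPM in LMPP, where each of the 4 CD3 chains was below 3 TPM. DN1 libraries held 392, 416 and 501 TPM, DN2a libraries 789, 793 and 968 TPM, DN2b libraries 1168, 1188 and 1468 TPM and DN3a libraries 2454 and 2639 TPM. Its levels thus went up at each step with no overlap, before as well as after the steep rise of *Cd3g* and *Cd3e*. *Zap70* was at 2.09 and 2.46 TPM in LMPP, 12.004, 14.5 and 15.2 TPM in DN1, 6.77, 8.21 and 10.1 TPM in DN2a, 31.6, 42.9 and 45.6 TPM in DN2b and 63.9 and 83.7 TPM in DN3a. In DN3b, after pre-T cell receptor signalling, *Zap70* was at 214 and 241 TPM, and these were the highest 2 of the 17 libraries. *Fyn* was at 49.8 and 49.9 TPM in LMPP, 92.2 to 101 TPM in DN1 and between 51.4 and 82.5 TPM in the 12 libraries of the later stages and of Rag2(-/-) DN3a cells.

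The steps between successive stages were tested in 1 limma fit of the 17 lymphoid libraries, in which all 8 genes passed the filter of 1 TPM in any library. From LMPP to DN1, 7 of the 8 rose and *Ptcra* was not called, where 18.6% of the 13482 genes tested were called. *Cd3e* rose by 4.55 ± 0.30 and *Cd3d* by 4.54 ± 0.44 on the log2 scale (limma adjusted p = 1.3e-07 and 4.9e-06), *Lck* by 2.25 ± 0.13 (limma adjusted p = 4.9e-08) and *Fyn* by 0.97 ± 0.12 (limma adjusted p = 6.7e-05). From DN1 to DN2a, 33.7% of genes were called. *Cd247* rose by 1.57 ± 0.11 (limma adjusted p = 4.1e-07) and *Lck* by 0.96 ± 0.12 (limma adjusted p = 5.2e-05), while *Cd3d* fell by 2.32 ± 0.39 on the log2 scale (limma adjusted p = 0.00061), *Fyn* fell by 0.78 ± 0.11 (limma adjusted p = 0.00017) and *Zap70* fell by 0.74 ± 0.18 (limma adjusted p = 0.0065). *Cd3g*, whose DN2a libraries all lay above those of DN1, was not called, but it rose after rescaling (1.10, limma adjusted p = 0.041), with a pseudocount of 1 (limma adjusted p = 0.024) and in a fit of these 2 groups alone (limma adjusted p = 0.023). The 8 genes therefore did not move as 1 group at this step, with 2 rising, or 3 in those fits, and 3 falling.

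From DN2a to DN2b, 7 of the 8 rose where 18.2% of genes were called, and *Fyn* was the one not called (0.09 ± 0.11, limma adjusted p = 0.62). *Cd3g* rose by 5.57 ± 0.38, *Cd3e* by 5.34 ± 0.27 and *Cd3d* by 4.92 ± 0.39 on the log2 scale, with limma adjusted p of 3.2e-07, 4.5e-08 and 1.4e-06. *Zap70* rose by 2.25 ± 0.18 (limma adjusted p = 1.3e-06) and *Lck* by 0.58 ± 0.12 (limma adjusted p = 0.0036). From DN2b to DN3a, 7 of the 8 rose again, against a background of 45.8% of genes called, *Lck* by 1.01 ± 0.13 (limma adjusted p = 5.8e-05) and *Cd247* by 0.67 ± 0.13 (limma adjusted p = 0.00079). From DN3a to DN3b, where 53.4% of genes were called, all 8 changed. *Zap70* rose by 1.63 ± 0.22 on the log2 scale (limma adjusted p = 2.9e-05), and the other 7 fell, *Ptcra* by a fitted 5.21-fold and *Cd3g* by 4.86-fold (limma adjusted p = 0.012 and 0.00088). Without DN3a replicate 2 the calls of *Cd3d*, *Ptcra* and *Fyn* at this step were lost (limma adjusted p = 0.053, 0.070 and 0.072), without DN3b replicate 1 those of *Cd3d* and *Ptcra* (0.059 and 0.081), and without DN3b replicate 2 that of *Fyn* (0.061). *Ptcra* was called from DN1 to DN2a without DN2a replicate 2 (2.06, limma adjusted p = 0.0095), and *Fyn* from DN2b to DN3a without DN2b replicate 1 (0.35, limma adjusted p = 0.039).

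Several of these steps moved the whole table. The median change of all genes was -0.18 from DN1 to DN2a, 0.27 from DN2b to DN3a, -0.41 from DN3a to DN3b and -0.18 from DN3a to Rag2(-/-) DN3a on the log2 scale. When the libraries were rescaled to the median of their gene ratios, the split of all called genes, higher against lower, went from 1464 and 3085 to 2085 and 2636 at DN1 to DN2a, from 4232 and 1943 to 2690 and 2961 at DN2b to DN3a, and from 1909 and 5286 to 3270 and 3831 at DN3a to DN3b. For the 8 genes the directions of all called changes at these 3 steps were the same after rescaling. *Cd3d*, *Lck* and *Fyn* were no longer called from DN3a to DN3b (limma adjusted p = 0.055, 0.053 and 0.37), whereas *Cd3e*, *Cd3g*, *Cd247* and *Ptcra* still fell there and *Zap70* rose by 2.00 ± 0.20 (limma adjusted p = 1.8e-06). *Lck* was not called from DN2a to DN2b after rescaling (limma adjusted p = 0.065), and *Cd3g* gained a call from DN1 to DN2a.

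Rag2(-/-) DN3a thymocytes were compared with wild-type DN3a cells, where 26.4% of genes were called. Of the 8 genes *Zap70* alone was called, and it was lower at 40.5 and 42.0 TPM against 63.9 and 83.7 TPM, a fall by 0.83 ± 0.22 on the log2 scale (limma adjusted p = 0.013). The groups did not overlap. This call was lost when wild-type replicate 1 was left out (log2 change -0.63, limma adjusted p = 0.13) or either Rag2(-/-) library (limma adjusted p = 0.059 and 0.071). *Ptcra* stood at 1952 and 1999.96 TPM against 889.5 and 1081 TPM, and *Cd3d* at 2441 and 2824 TPM against 1320.0 and 1402 TPM, both without overlap. Their fitted changes of 1.01 ± 0.71 and 0.95 ± 0.48 did not pass (limma adjusted p = 0.32 and 0.16), but they were called in a fit of these 2 groups alone (limma adjusted p = 0.00058 and 0.00054). After rescaling, *Fyn* was called as well (0.38 ± 0.10, limma adjusted p = 0.010), and all called genes split into 1834 higher and 2020 lower in place of 931 and 2629.

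Other genes of proximal T cell receptor signalling were counted in the same steps from a list of 33 adaptors, enzymes and coreceptors. From LMPP to DN1, 18 rose and 1 fell (57.6% of the list, against 18.6% of all genes), with a median change of 0.93 on the log2 scale over the list against -0.05 over all genes. *Sh2d2a*, an adaptor that binds Lck, went from 0.596 to 20.4 ± 0.578 TPM and *Grap2*, the GADS adaptor, from 3.77 to 63.2 ± 6.99 TPM (SD, n = 3; limma adjusted p = 1.4e-09 and 9.8e-09). From DN1 to DN2a 10 rose and 10 fell (60.6% against 33.7%), and from DN2a to DN2b 16 rose and 1 fell (51.5% against 18.2%). *Lat*, the membrane adaptor phosphorylated by ZAP-70, rose from 332 to 843 TPM in DN2b (limma adjusted p = 2.8e-07) and to 1955 TPM in DN3a (limma adjusted p = 8.6e-07). At that last step 22 of the 33 rose and 4 fell (78.8% against 45.8%), and from DN3a to DN3b 4 rose and 19 fell (69.7% against 53.4%), at steps where the calls over all genes lay mostly the same way. In Rag2(-/-) DN3a cells 12 of the 33 (36.4%, where 26.4% of all genes were called, mostly lower) were lower and none was higher, with a median change of -0.34 against -0.18 over all genes. The one-sided split of all genes was nearly even after rescaling, as given above. Among the 12 was *Cd5*, a receptor whose level follows signalling by the pre-T and T cell receptor, at 3.74 against 16.8 TPM (limma adjusted p = 7.9e-05).

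Regulators of the proximal kinases made a list of 16. From DN2b to DN3a 8 rose and 2 fell, 62.5% of the list against 45.8% of all genes, and the median change was 0.34 against 0.27. From DN3a to DN3b 1 rose and 10 fell, 68.75% against 53.4%, with a median of -0.78 against -0.41. All called genes were mostly higher at the first of these steps and mostly lower at the second. *Pag1*, which brings the inhibitory kinase Csk to the membrane, was at 85.3 TPM in DN2b, 301 TPM in DN3a and 50.8 TPM in DN3b (limma adjusted p = 2.0e-05 and 1.2e-06). *Ptpn22*, a phosphatase that acts on Lck, was at 71.2 TPM in DN3a and 20.2 TPM in DN3b (limma adjusted p = 5.6e-07). At the DN2a to DN2b step, where the CD3 chains rose, the ITAM adaptors of other receptors fell: *Fcer1g* from 128 to 17.9 TPM and *Tyrobp* from 998 to 48.0 TPM (limma adjusted p = 4.5e-08 and 2.2e-05), 2 of the 4 in that list. *Lyn*, *Btk*, *Syk* and *Plcg2*, used by the B cell receptor, also fell there, and of the 12 B cell counterparts 4 fell and 1 rose (41.7%, against 18.2% of all genes).

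Early thymocyte markers such as *Il2ra*, *Bcl11b* and *Tcf7* summed to 194 and 228 TPM in LMPP, 1950 to 2258 TPM in DN1 and 12840 and 12873 TPM in DN3a, all 10 being above 1 TPM from DN1 on. Granulocyte markers, such as *Mpo* and *Elane*, summed to 2144 to 2403 TPM in LMPP and to at most 4.99 TPM in DN3a. From DN1 to DN2a they went from between 1798 and 2051 TPM to between 468 and 509 TPM, macrophage markers from between 175 and 190 TPM to between 47.7 and 69.5 TPM, and plasmacytoid dendritic cell markers from between 175 and 207 TPM to between 98.8 and 108 TPM. The NK cell list, which the lymphoid progenitors share in part, summed to 373 and 433 TPM in LMPP, 802 to 902 TPM in DN1 and 707 to 948 TPM in DN2a. Of its 11 genes, 6 were above 1 TPM in DN1 and *Klre1* was at 0 there, while 4 were above 1 TPM in DN2a and *Ncr1*, *Klrk1*, *Klre1* and *Eomes* were at 0. *Cd3d*, *Zap70* and *Fyn* fell at this same step. The part of other cells in these values was not tested.

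In bone marrow pro-B cells and progenitors *Cd3d*, *Cd3e*, *Cd3g* and *Ptcra* were at or near 0 in every genotype, *Cd247* was low, and *Lck*, *Fyn* and *Zap70* were expressed. *Cd3d* had at most 34 reads in any of the 31 libraries (1.79 TPM in a Pax5(+/+) library) and a median of 5, *Cd3g* at most 17 reads (1.14 TPM in a Pax5(DCRD1,2/-) library), *Cd3e* at most 10 and *Ptcra* at most 5. No read was found for *Ptcra* in 21 of the 31 libraries, for *Cd3e* in 15, for *Cd3g* in 11 and for *Cd3d* in 4. Where no read was found, 3 reads would correspond to 0.131 to 0.303 TPM for *Ptcra* and 0.115 to 0.538 TPM for *Cd3e*. Levels below these can therefore not be excluded in such libraries, counting error alone being considered. The 4 Vav-Cre Pax5(fl/fl) libraries held 0 to 7 reads of *Cd3d*, 0 to 3 of *Cd3e*, 1 to 6 of *Cd3g* and 0 to 2 of *Ptcra*. In these tables *Ptcra* and *Cd3e* never exceeded 1 TPM and were left out of the reported fits. Without the filter on low values limma called neither, the lowest adjusted p being 0.0506 for *Ptcra* in Pax5(DOP,HD/DOP,HD), on at most 5 reads. In the reported fits *Cd3d* and *Cd3g*, where they were tested, rest on a few reads and neither was called with all libraries in.

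**Figure D3:**
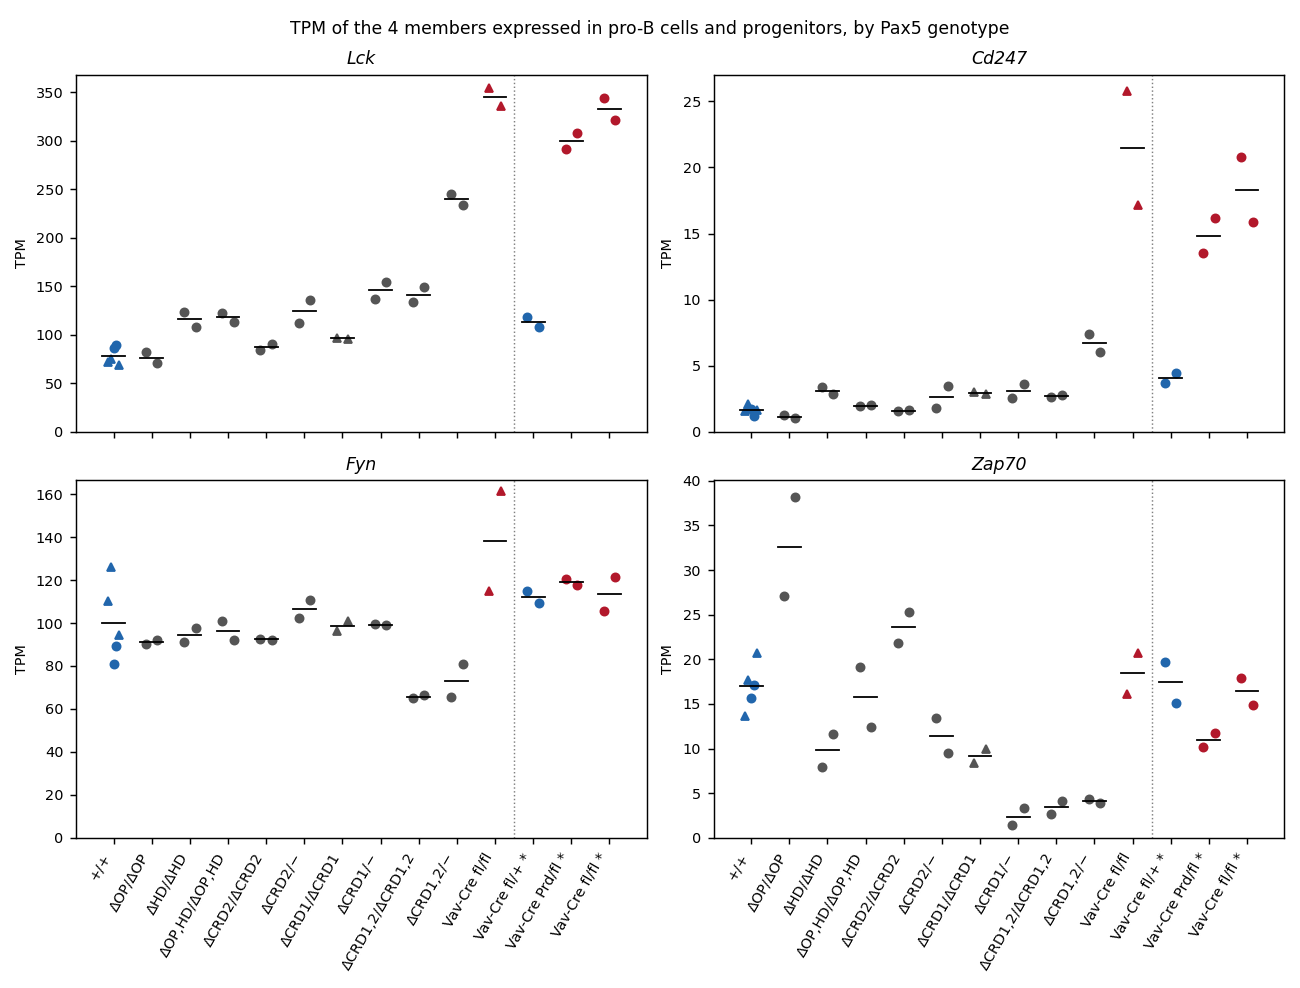
TPM of *Lck*, *Cd247*, *Zap70* and *Fyn* in each *Pax5* library by genotype; circles mark 100 nt reads and triangles 50 nt reads, bars are group means, blue marks Pax5(+/+) and Vav-Cre Pax5(fl/+), red marks Vav-Cre Pax5(fl/fl) and Vav-Cre Pax5(Prd/fl), grey the domain deletions, and an asterisk the groups of the separate experiment. *Lck* and *Cd247* are highest without Pax5, *Zap70* is lowest in Pax5(DCRD1/-) cells and in both genotypes lacking CRD1 and CRD2, and *Fyn* changes little.

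*Lck* had the clearest gradient over the genotypes. Pax5(+/+) libraries held 69.2 to 89.5 TPM with a median of 75.3, the 3 libraries of 50 nt reads at 69.2 to 75.3 TPM and the 2 of 100 nt reads at 86.5 and 89.5 TPM. Pax5(DOP/DOP) libraries were at 70.6 and 82.4 TPM, Pax5(DCRD2/DCRD2) libraries at 84.5 and 90.5 TPM and Pax5(DCRD1/DCRD1) libraries at 96.3 and 97.2 TPM. Above them came Pax5(DHD/DHD) at 108 and 124 TPM, Pax5(DOP,HD/DOP,HD) at 113 and 123 TPM, Pax5(DCRD2/-) at 112 and 136 TPM, Pax5(DCRD1,2/DCRD1,2) at 134 and 149.5 TPM and Pax5(DCRD1/-) at 137 and 155 TPM. This order of TPM joins both read lengths, with 50 nt in Pax5(DCRD1/DCRD1) and 100 nt in the genotypes placed above it. It need not be the order of the changes from Pax5(+/+) libraries of the same length. Pax5(DCRD1,2/-) libraries reached 234 and 245 TPM and Vav-Cre Pax5(fl/fl) progenitors 336 and 354 TPM, neither overlapping with any other genotype. In the order of the means, the neighbours from Pax5(DCRD1/-) down to Pax5(DHD/DHD) overlapped with one another, as did Pax5(DCRD2/DCRD2), Pax5(+/+) and Pax5(DOP/DOP).

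*Cd247* was at 1.20 to 2.10 TPM in Pax5(+/+), with a median of 1.67, and at 17.1 and 25.8 TPM in Vav-Cre Pax5(fl/fl) progenitors. Pax5(DCRD1,2/-) pro-B cells held 6.05 and 7.42 TPM, between these groups and apart from both. Pax5(DCRD1/DCRD1), Pax5(DHD/DHD), Pax5(DCRD1/-), Pax5(DCRD2/-) and Pax5(DCRD1,2/DCRD1,2) libraries lay together between 1.80 and 3.64 TPM. Pax5(DOP/DOP) libraries were at 1.03 and 1.29 TPM, the first of them the lowest of all and the second within the range of Pax5(+/+). In the Vav-Cre Pax5(fl/fl) progenitors the ζ chain gene was thus expressed with almost no RNA of *Cd3d*, *Cd3e* and *Cd3g*, whose products it joins in the T cell receptor.

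*Zap70* followed another order. Pax5(+/+) libraries held 13.7 to 20.7 TPM with a median of 17.1, and Vav-Cre Pax5(fl/fl) progenitors, at 16.1 and 20.7 TPM, were within that range. The lowest libraries were those of Pax5(DCRD1/-), at 1.47 and 3.31 TPM, Pax5(DCRD1,2/DCRD1,2), at 2.72 and 4.11 TPM, and Pax5(DCRD1,2/-), at 3.88 and 4.38 TPM. Pax5(DCRD1/DCRD1) libraries were at 8.38 and 9.95 TPM and Pax5(DHD/DHD) libraries at 7.96 and 11.6 TPM. Pax5(DCRD2/DCRD2), at 21.8 and 25.4 TPM, and Pax5(DOP/DOP), at 27.1 and 38.2 TPM, lay above all Pax5(+/+) libraries. Pax5(DCRD2/-) libraries were at 9.48 and 13.4 TPM, below all of them, and Pax5(DOP,HD/DOP,HD) libraries at 12.4 and 19.1 TPM. *Zap70* was therefore lowest in CRD1-deleted cells and not in those without Pax5.

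*Fyn* was at 80.8 to 126 TPM in Pax5(+/+), with a median of 94.2, and 7 of the 10 other genotypes of the first experiments had both libraries within that range, from 90.3 to 111 TPM. That range joins both read lengths: Pax5(+/+) libraries of 50 nt reads held 94.2 to 126 TPM, those of 100 nt reads 80.8 and 89.1 TPM. All libraries of 100 nt reads from the 7 genotypes lay above both Pax5(+/+) libraries of that length, though limma did not call *Fyn* in them. Vav-Cre Pax5(fl/fl) progenitors were at 115 and 162 TPM. Pax5(DCRD1,2/DCRD1,2) libraries, at 65.0 and 66.5 TPM, lay below all Pax5(+/+) libraries. Pax5(DCRD1,2/-) libraries were at 65.4 and 80.8 TPM.

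Deletions of the central domains were tested against the 2 Pax5(+/+) libraries of 100 nt reads, and *Cd3d*, *Cd247*, *Lck*, *Fyn* and *Zap70* passed the filter. None of the 5 was called in Pax5(DOP/DOP), Pax5(DHD/DHD) or Pax5(DOP,HD/DOP,HD) cells, where 0.485%, 0.639% and 1.22% of 12996 genes were called by limma. At an unadjusted p under 0.05 there were 1, 3 and 1 of them. *Zap70* in Pax5(DOP/DOP) was higher by 0.97 ± 0.28 on the log2 scale without overlap (limma adjusted p = 0.14), and DESeq2 on the recovered reads called it (1.02, DESeq2 adjusted p = 0.0034), while edgeR called none. In Pax5(DHD/DHD) the values were 0.40 ± 0.11 for *Lck*, 1.04 ± 0.37 for *Cd247* and -0.76 ± 0.28 for *Zap70* (limma adjusted p = 0.22, 0.31 and 0.32), and neither edgeR nor DESeq2 called any of the 5 in that genotype or in Pax5(DOP,HD/DOP,HD). Of the 33 other genes of proximal T cell receptor signalling, 25 were tested, and *Lat* alone rose, from 51.4 to 90.4 TPM in Pax5(DHD/DHD) and to 91.1 TPM in Pax5(DOP,HD/DOP,HD) (limma adjusted p = 0.038 and 0.024).

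The hemizygous C-terminal deletions and the first Vav-Cre Pax5(fl/fl) progenitors were fitted together with all Pax5(+/+) libraries, and 6 of the 8 genes were tested, *Cd3d* and *Cd3g* among them. In Vav-Cre Pax5(fl/fl) progenitors 2 of the 6 were called, where 31.7% of 13637 genes were called. *Lck* rose by 2.25 ± 0.11 on the log2 scale, a fitted 4.77-fold (limma adjusted p = 1.6e-07), and *Cd247* by 3.49 ± 0.34, a fitted 11.2-fold (limma adjusted p = 1.9e-05). *Fyn* (0.31 ± 0.17) and *Zap70* (0.09 ± 0.31) did not pass (limma adjusted p = 0.19 and 0.86). In Pax5(DCRD1,2/-) cells, where 20.2% of genes were called, 3 were: *Lck* rose by 1.44 ± 0.12 (limma adjusted p = 1.9e-05), *Cd247* by 2.12 ± 0.37 (limma adjusted p = 0.0022), and *Zap70* fell by 1.96 ± 0.34 on the log2 scale (limma adjusted p = 0.0023). *Cd3g*, with 10 and 17 reads there, was at 1.81 ± 0.91 (limma adjusted p = 0.20) and was called without Pax5(+/+) replicate 4 (limma adjusted p = 0.042).

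In Pax5(DCRD1/-) cells *Lck* rose by 0.73 ± 0.12 on the log2 scale (limma adjusted p = 0.0035) and *Zap70* fell by 2.83 ± 0.34, a fitted 7.12-fold (limma adjusted p = 0.00049), 2 of 6 against 8.51% of all genes. *Cd247*, at 1.01 ± 0.37, was not called (limma adjusted p = 0.13), but DESeq2 called it (adjusted p = 0.046). Without Pax5(DCRD1/-) replicate 2 the call of *Lck* was lost (0.64, limma adjusted p = 0.051). Pax5(DCRD2/-) cells gave no call among the 6, with 0.513% of genes called, 1 of the 6 at an unadjusted p under 0.05 and none by edgeR or DESeq2. *Lck* was higher there by 0.49 ± 0.12 without overlap (limma adjusted p = 0.15). It was called in a fit of all 25 libraries (limma adjusted p = 0.029) and without the read length term (0.66, limma adjusted p = 0.031).

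Compared directly, Pax5(DCRD1,2/-) cells were higher than Pax5(DCRD1/-) cells in *Lck* by 0.72 ± 0.12 (limma adjusted p = 0.012), 1 of the 6 against 2.17% of genes. *Cd247* was called there by DESeq2 (1.21, adjusted p = 0.018). The limma call of *Lck* was lost without Pax5(DCRD1,2/-) replicate 1 (log2 change 0.69) and without Pax5(DCRD1/-) replicate 1 or 2 (0.63 and 0.80). Vav-Cre Pax5(fl/fl) progenitors were higher than Pax5(DCRD1,2/-) cells in *Lck* by 0.81 ± 0.16 (limma adjusted p = 0.032), 1 of the 6 against 2.02% of genes, and *Zap70* at 2.06 ± 0.47 lay at the threshold (limma adjusted p = 0.0505). That comparison joins libraries of different read length through Pax5(+/+). Its call of *Lck* was lost without any one of the 4 compared libraries (limma adjusted p = 0.070 to 0.10) and with edgeR (adjusted p = 0.073), whereas *Zap70* was called by edgeR (adjusted p = 0.026) and DESeq2 (adjusted p = 0.00065).

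**Figure D4:**
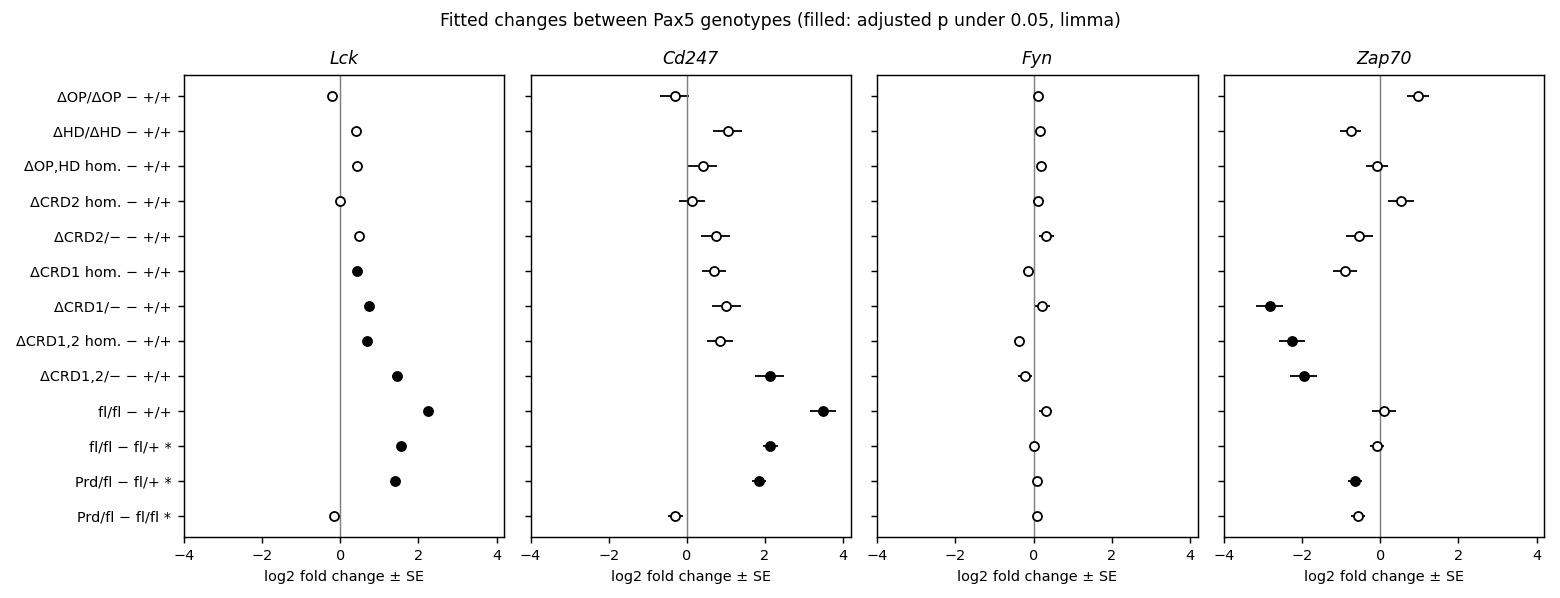
Fitted log2 changes of *Lck*, *Cd247*, *Zap70* and *Fyn* against the controls of each experiment and, in the last row, of Vav-Cre Pax5(Prd/fl) against Vav-Cre Pax5(fl/fl). Error bars are SE, and filled points have a limma adjusted p under 0.05. *Lck* changes upward from 0.42 to 2.25 where it is called in the first experiments, and *Zap70* is called downward in Pax5(DCRD1/-), Pax5(DCRD1,2/-), Pax5(DCRD1,2/DCRD1,2) and Vav-Cre Pax5(Prd/fl) cells but lies near 0 in Vav-Cre Pax5(fl/fl) cells.

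With both alleles mutant, the fitted changes of *Zap70* were -2.26 for the deletion of CRD1 and CRD2, -0.90 for that of CRD1 and 0.52 for that of CRD2 on the log2 scale, beside -1.96, -2.83 and -0.53 over a null allele. In Pax5(DCRD1,2/DCRD1,2) cells, where 24.6% of 13598 genes were called, *Lck* rose by 0.68 ± 0.11 (limma adjusted p = 0.00067) and *Zap70* fell by 2.26 ± 0.33 on the log2 scale (limma adjusted p = 0.0003), 2 of 6. *Fyn*, at -0.37 ± 0.14, did not pass (limma adjusted p = 0.065) and was called when libraries of 100 nt reads alone were fitted (limma adjusted p = 0.047), without Pax5(+/+) replicate 2 or 5 (limma adjusted p = 0.039 and 0.033) and by DESeq2 (adjusted p = 0.040), which also called *Cd247* (0.88, adjusted p = 0.041). In Pax5(DCRD1/DCRD1) cells *Lck* rose by 0.42 ± 0.10 (limma adjusted p = 0.021), 1 of 6 against 8.16% of genes, and *Zap70* was at -0.90 ± 0.30 (limma adjusted p = 0.096), which DESeq2 called (-0.87, adjusted p = 0.026). The limma call of *Lck* was lost without either Pax5(DCRD1/DCRD1) library (limma adjusted p = 0.16 and 0.13), without Pax5(+/+) replicate 1 (limma adjusted p = 0.0501) and among the libraries of 50 nt reads alone (limma adjusted p = 0.12). In Pax5(DCRD2/DCRD2) cells none of the 6 was called or had an unadjusted p under 0.05, with 0.0956% of genes called, and none was called by edgeR or DESeq2.

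Between Pax5(DCRD1,2/DCRD1,2) and Pax5(DCRD1/DCRD1) cells, which differ in gate and in read length as well, limma called none of the 6, with 1.71% of genes called and 1 of the 6, *Zap70*, at an unadjusted p under 0.05 (-1.36 ± 0.45, limma adjusted p = 0.18). DESeq2 called *Zap70* (adjusted p = 0.042) and edgeR none. An interaction term asked whether the step from the CRD1 to the CRD1,2 deletion was the same in homozygotes as over a null allele. It called 0.0294% of genes and none of the 6 by limma or edgeR, and the called genes split into 3 higher and 1 lower, or 2 and 2 after rescaling. *Zap70* (-2.22 ± 0.56) and *Lck* (-0.46 ± 0.19) had an unadjusted p under 0.05 (limma adjusted p = 0.55 and 0.76), and DESeq2 called *Zap70* (adjusted p = 0.022).

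In the separate experiment with Cre-carrying controls, *Lck* was at 108 and 119 TPM in Vav-Cre Pax5(fl/+) pro-B cells, 291 and 308 TPM in Vav-Cre Pax5(Prd/fl) and 321 and 344 TPM in Vav-Cre Pax5(fl/fl) progenitors. *Cd247* was at 3.68 and 4.45 TPM, at 13.498 and 16.2 TPM and at 15.9 and 20.8 TPM in the same order. *Zap70* was at 15.1 and 19.7 TPM, at 10.2 and 11.75 TPM and at 14.9 and 18.0 TPM, and *Fyn* lay between 105 and 121 TPM in all 6 libraries. Cells with the paired domain alone were therefore close to cells without Pax5 in *Lck* and *Cd247*, and below the other two groups in *Zap70*. *Cd3d*, *Cd3e*, *Cd3g* and *Ptcra* had at most 7 reads in any library of this experiment, and 4 of the 8 genes were tested.

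From Vav-Cre Pax5(fl/+) to Vav-Cre Pax5(fl/fl), where 39.9% of 12941 genes were called, *Lck* rose by 1.55 ± 0.08 (limma adjusted p = 6.2e-05) and *Cd247* by 2.14 ± 0.19 on the log2 scale (limma adjusted p = 0.00036). From Vav-Cre Pax5(fl/+) to Vav-Cre Pax5(Prd/fl), where 40.7% were called, *Lck* rose by 1.404 ± 0.08 (limma adjusted p = 7.9e-05) and *Cd247* by 1.84 ± 0.19 (limma adjusted p = 0.00062), while *Zap70* fell by 0.65 ± 0.17 (limma adjusted p = 0.026). The call of *Zap70* was lost without Vav-Cre Pax5(fl/+) replicate 1 (-0.46, limma adjusted p = 0.18) or 2 (limma adjusted p = 0.051) and without Vav-Cre Pax5(Prd/fl) replicate 1 (limma adjusted p = 0.084). Both comparisons share the Vav-Cre Pax5(fl/+) libraries. Compared with Vav-Cre Pax5(fl/fl), Vav-Cre Pax5(Prd/fl) progenitors gave no limma call among the 4, with 1.97% of genes called and *Zap70* alone at an unadjusted p under 0.05 (-0.58 ± 0.17, limma adjusted p = 0.16). DESeq2 called *Zap70* there (adjusted p = 0.021) and edgeR called none. After rescaling, all genes called between these progenitors split into 114 higher and 120 lower in place of 152 and 103.

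Genes around these kinases were counted from the same lists. Of the 33 other genes of proximal T cell receptor signalling, 31 were tested in Vav-Cre Pax5(fl/fl) progenitors of the first experiment, and 11 rose and 7 fell (58.1%, against 31.7% of all genes). *Grap2* went from 12.5 to 93.1 ± 10.2 TPM and *Sh2d2a* from 13.2 to 35.0 ± 2.59 TPM (SD, n = 2; limma adjusted p = 7.4e-07 and 3.3e-05), while *Prkcq*, the protein kinase C of the T cell synapse, went from 12.4 to 1.37 TPM (limma adjusted p = 3.2e-05). In Pax5(DCRD1,2/-) cells 7 rose and 8 fell (48.4% against 20.2%), in Pax5(DCRD1/-) cells 1 rose and 7 fell (25.8% against 8.51%), and in Pax5(DCRD1,2/DCRD1,2) cells 3 of 29 rose and 10 fell (44.8% against 24.6%). In these deletions some of the genes were lower, as *Zap70* was. Whether they also stayed near the level of Pax5(+/+) without Pax5, as *Zap70* did, is not given here. *Lcp2*, the SLP-76 adaptor phosphorylated by ZAP-70, was at 20.1 ± 3.24 TPM (SD, n = 5) in Pax5(+/+). It was at 3.29 TPM in Pax5(DCRD1/-), 1.68 TPM in Pax5(DCRD1,2/-) and 1.84 TPM in Pax5(DCRD1,2/DCRD1,2) cells (limma adjusted p = 0.0016, 0.0001 and 3.6e-05). *Cd2* and *Skap1* were also among the genes lower in both hemizygous genotypes without CRD1.

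Among the 16 regulators of the proximal kinases, 6 rose and 3 fell in Vav-Cre Pax5(fl/fl) progenitors (56.25%, against 31.7% of all genes). *Sla2*, an adaptor that lowers T cell receptor signalling, went from 8.05 to 64.8 ± 1.37 TPM and *Ubash3a*, a negative regulator of T cell receptor signalling, from 83.8 to 22.5 ± 0.245 TPM (limma adjusted p = 1.9e-06 and 1.7e-05). *Ubash3a* was at 23.8 TPM in Pax5(DCRD1/-), 18.9 TPM in Pax5(DCRD1,2/-), 37.2 TPM in Pax5(DCRD1/DCRD1) and 17.6 TPM in Pax5(DCRD1,2/DCRD1,2) cells, lower in each (limma adjusted p = 7.2e-05, 1.1e-05, 0.0031 and 1.3e-06). Of the 12 B cell counterparts, 8 fell and 2 rose in Vav-Cre Pax5(fl/fl) progenitors, *Cd79a* from 3185 to 445 TPM and *Vpreb3* from 5287 to 784 TPM (limma adjusted p = 2.1e-06 and 3.8e-07). *Blk*, a SRC-family kinase of B cells, rose from 129 to 362 TPM and *Src* from 1.94 to 23.8 TPM (limma adjusted p = 0.0005 and 4.6e-06), 2 of the 4 that rose among 10 other SRC, SYK and TEC family kinases, of which 2 fell. All 4 other ITAM adaptors changed: *Fcer1g* and *Tyrobp* rose, to 209 and 429.7 TPM, and *Cd79a* and *Cd79b* fell.

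Markers of T cells, 10 genes without any of the 8, summed to 34.5 to 62.3 TPM in Pax5(+/+), 82.95 and 98.5 TPM in Pax5(DCRD1,2/-), 177 and 258 TPM in the first Vav-Cre Pax5(fl/fl) progenitors, 173 and 175 TPM in those of the separate experiment and 76.8 and 147 TPM in Vav-Cre Pax5(Prd/fl) progenitors. *Trat1*, an adaptor of the T cell receptor, accounts for much of it, at 115.6 ± 58.5 TPM in Vav-Cre Pax5(fl/fl) and 0 in all Pax5(+/+) libraries. The T cell list was thus higher in the groups with the most *Lck* and *Cd247*. *Lck* was also called higher in Pax5(DCRD1/-), Pax5(DCRD1/DCRD1) and Pax5(DCRD1,2/DCRD1,2) cells. There the list stayed within the range of Pax5(+/+), at 44.8 and 45.6, 38.2 and 38.7, and 54.5 and 55.5 TPM. *Cd3d*, *Cd3e* and *Cd3g*, which define mature T cells, had at most 7 reads in any Vav-Cre Pax5(fl/fl) library. The first of these progenitors were sorted after removal of CD3+ cells, so these few reads do not test for T cells. Early thymocyte markers, which share *Rag1* with the B lineage list, summed to 746 to 1147 TPM in Pax5(+/+). They were at 600 and 698 TPM in Pax5(DCRD1,2/-), 597 and 632 TPM in Pax5(DCRD1,2/DCRD1,2) and 1131 and 1151 TPM in the first Vav-Cre Pax5(fl/fl) cells. In the separate experiment Vav-Cre Pax5(fl/+) held 766 and 798 TPM, Vav-Cre Pax5(Prd/fl) 798 and 901 TPM and Vav-Cre Pax5(fl/fl) 881 and 954 TPM. The NK cell list holds 11 genes of cells that also use *Lck*, *Fyn*, *Zap70* and *Cd247*. It went from 25.7 to 56.5 TPM in Pax5(+/+) to 68.7 and 104 TPM in the first Vav-Cre Pax5(fl/fl) progenitors, with *Gzmb* at 0. This NK sum was also above all Pax5(+/+) libraries in Pax5(DCRD1/DCRD1), at 72.9 and 78.4 TPM. The same held in Pax5(DHD/DHD), at 57.7 and 68.5 TPM, and Pax5(DCRD1,2/DCRD1,2), at 61.9 and 64.6 TPM. In Pax5(DCRD1,2/-) cells it was at 45.3 and 52.5 TPM. In the separate experiment the NK list summed to 22.8 and 23.0 TPM in Vav-Cre Pax5(fl/+), 41.1 and 53.1 TPM in Vav-Cre Pax5(fl/fl) and 38.5 and 59.7 TPM in Vav-Cre Pax5(Prd/fl) cells. The 6 ILC2 markers summed to 0.268 to 1.18 TPM in Pax5(+/+) against 4.42 and 6.53 TPM in Vav-Cre Pax5(fl/fl), with *Il13*, *Il5* and *Areg* at 0, and to at most 0.450 TPM in Vav-Cre Pax5(fl/+) against 2.00 to 3.34 TPM in the other two groups of that experiment. Plasmacytoid dendritic cell markers summed to 261 to 394 TPM in Pax5(+/+) and 698 and 1233 TPM in the first Vav-Cre Pax5(fl/fl) progenitors. In the separate experiment Vav-Cre Pax5(fl/+) held 332 and 350 TPM, Vav-Cre Pax5(Prd/fl) 324 and 380 TPM and Vav-Cre Pax5(fl/fl) 313 and 401 TPM. Granulocyte markers varied within and between genotypes, from 690.1 to 6194 TPM in Pax5(+/+). They were at 944 and 14878 TPM in Pax5(DCRD2/-), 6061 and 6532 TPM in Pax5(DOP/DOP) and 152 and 330 TPM in Pax5(DCRD1/-) cells. B lineage markers summed to 13190 to 21038 TPM in the domain mutants and Pax5(+/+) against 6769 and 7387 TPM in Vav-Cre Pax5(fl/fl) progenitors. Their part in the results was not tested.

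As a description of likeness, group means on the scale log2(TPM + 0.1) were correlated with those of all other genes above 5 TPM in any group, separately over the 7 lymphoid groups (11039 genes) and the 11 genotypes of the first *Pax5* experiments (10935 genes). Over the lymphoid groups *Cd3e* was most like *Cd3g* (Pearson's r = 0.992) and *Cd3g* most like *Ets1* (0.994). *Ptcra* was most like *Snhg1* (0.994) and *Tcf12* (0.992), *Cd247* like *Rapgef3* (0.993), *Cd3d* like *Drc1* (0.989), *Zap70* like *Id3* (0.993) and *Lck* like a T cell receptor γ constant gene (0.997), with *Cd247* following at 0.989. *Fyn* had a lower best match, *Apeh* (0.931). Over the genotypes the genes most like *Lck*, *Cd247*, *Zap70* and *Fyn* were *Depp1* (0.969), *Npc1* (0.988), *Pigo* (0.958) and *Sec24c* (0.961). So few points, with libraries shared by all genes, give high coefficients to many genes.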

How the data were processed

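Poly(A) RNA of the sorted cells was sequenced. For the *Pax5* libraries the authors trimmed reads to 50 nt, aligned them to GRCm38 (mm10) with STAR 2.4.2a, counted them per RefSeq gene with Rsubread and deposited TPM. The 8 of these tables that lack gene names were read in the row order of the others, and each also carries a column of raw counts per gene, which the authors deposited for 1 of 2 libraries (Pax5(+/+) replicate 3 or Vav-Cre Pax5(fl/+) replicate 1). Its zeros fell on the same rows as those of that library's TPM, and gene lengths implied by the tables were the same over 14405 rows. For the lymphoid libraries the authors used TopHat 1.4.1 on mm9 and deposited 2 TPM values per gene, taken here as a signal whose mean is on the TPM scale, with entries of exactly 1 read as 0. How the 2 values differ is not given in the sources used here. For these genes their ratio had a median of 1.16 and a maximum of 2.22, and their mean was used.

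Whole reads were recovered from the *Pax5* TPM (100% of the low values tested within 0.05 of a whole number in every library), which gives depth and the reads behind low values. Intervals and limits cover counting error only. No 2 replicates agreed within sampling noise (lowest chi-square per gene 5.33), and at most 0.00669% of values were identical between lymphoid replicates.

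Tests used limma 3.58.1 in R 4.3.3 on log2(TPM + 0.1), with a trend, two-sided, for all genes above 1 TPM in at least 1 library of the model, and Benjamini-Hochberg adjustment over them; adjusted p under 0.05 was called. The pseudocount lowers the fold changes of low genes. The models held 8 libraries (central domain deletions with the 2 Pax5(+/+) libraries of 100 nt reads), 13 (hemizygous C-terminal deletions and Vav-Cre Pax5(fl/fl), with read length), 17 (homozygous and hemizygous C-terminal deletions, with read length, also for the interaction), 6 (Prd experiment) and 17 (lymphoid). Lymphoid and *Pax5* tables were normalized separately and never tested together. edgeR 4.0.16 and DESeq2 1.42.0 were run on the recovered reads as alternatives, beside other pseudocounts, filters, scalings, models, single TPM values and left-out replicates. The scripts were tested on simulated data.

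The 8 genes are named throughout, and of each gene list at most the 4 with the smallest adjusted p in a comparison. The genes and lists were chosen with earlier results of these data known. Other assays of the study were not used here. Replicate numbers did not pair the libraries. Promoter windows came from RefSeq on GRCm38.p6; protein sequences were not analysed here.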

Additional observations from a re-analysis of the deposited data

Results flagged for a closer look

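*Cd3d* in Pax5(+/+) pro-B cells was flagged because 1 library stood far from the other four: replicate 4 held 1.79 TPM (34 reads), against 0 to 0.375 TPM (0 to 5 reads) in the rest. The same library had the most reads of *Cd3e* (8) and *Cd3g* (8) among the Pax5(+/+) libraries. *Ptcra* in Pax5(+/+) pro-B cells was flagged for replicate 5, at 0.0778 TPM, which is 1 read, where the other libraries had none. The rule was applied to 8 groups, those of the 8 genes in the 5 Pax5(+/+) libraries, and chance flags about 1 in 20 groups. What lies behind these values was not tested.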

How the results depend on the processing

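Counts of the 8 genes called were within 1.5 times the reported ones in 324 of 365 repeats under other settings. Of 2226 repeats of single genes 2145 stayed on the same side of the threshold, 43 gained and 38 lost a call, and none of the called changes reversed. Direction was not compared where neither the reported fit nor the repeat called the gene, and some of these uncalled changes had either sign. The settings that moved a count were these, and the cause was not tested except where fewer libraries were fitted. With DESeq2 on recovered reads the counts were 1 for Pax5(DOP/DOP), 2 for Pax5(DCRD1,2/-) against Pax5(DCRD1/-), 2 for Vav-Cre Pax5(fl/fl) against Pax5(DCRD1,2/-), 2 for Pax5(DCRD1/DCRD1), 4 for Pax5(DCRD1,2/DCRD1,2), and 1 each for the comparison of the CRD1,2 and CRD1 homozygotes, the interaction, and Vav-Cre Pax5(Prd/fl) against Vav-Cre Pax5(fl/fl). In a fit of all 25 libraries Pax5(DCRD2/-) gave 1, Pax5(DCRD1,2/-) against Pax5(DCRD1/-) 2, and Vav-Cre Pax5(fl/fl) against Pax5(DCRD1,2/-) 2. Without the read length term, Pax5(DCRD2/-) gave 1, Vav-Cre Pax5(fl/fl) against Pax5(DCRD1,2/-) 4, Pax5(DCRD1/DCRD1) 0 and the CRD1,2 against the CRD1 homozygotes 3. With the compared groups alone, these gave 0 for Pax5(DCRD1,2/-) against Pax5(DCRD1/-), 2 for Vav-Cre Pax5(fl/fl) against Pax5(DCRD1,2/-), 0 for Pax5(DCRD1/DCRD1), 3 for the CRD1,2 against the CRD1 homozygotes and 3 for Rag2(-/-) DN3a; read length could not be estimated for Vav-Cre Pax5(fl/fl) against Pax5(DCRD1,2/-) and for the homozygotes, and was dropped there. Vav-Cre Pax5(fl/fl) against Pax5(DCRD1,2/-) gave 2 with a pseudocount of 1, 0 without a trend and 0 after rescaling. Rescaling gave 5 from DN3a to DN3b and 2 for Rag2(-/-) DN3a. Libraries of 50 nt reads alone, a setting chosen after seeing the data, gave 0 for Pax5(DCRD1/DCRD1).

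Leaving out 1 replicate at a time gave 1 to 2 calls for Pax5(DCRD1/-), 0 to 1 for Pax5(DCRD1,2/-) against Pax5(DCRD1/-), 0 in each case for Vav-Cre Pax5(fl/fl) against Pax5(DCRD1,2/-), 0 to 1 for Pax5(DCRD1/DCRD1), 5 to 8 from DN3a to DN3b and 0 to 1 for Rag2(-/-) DN3a. A group left with 1 library is assumed to vary like the other groups. With a replicate block, the count from DN1 to DN2a went from 5 to 6, with *Cd3g* at a limma adjusted p of 0.0499, and no other count changed. Same-numbered libraries did not deviate together (correlations of -0.28 to 0.17 in the hemizygous model), so the numbers were not taken as pairs. Depth limits *Cd3d*, *Cd3e*, *Cd3g* and *Ptcra* in the *Pax5* libraries, where few or no reads were found.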
